A study of Zea mays with 4 samples.

Results

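The genes described here gave strong signal in both of 2 maize (Zea mays) inbred lines, and most of them work in the basic upkeep of every cell. They were chosen as the probe sets with exactly 1 annotated gene whose deposited log2 value was 12 or more on each of the 4 arrays. Control probe sets, 2 single genes and named families such as lignin genes, sucrose and glutamine synthases, tubulins, ribosomal proteins of the rpl and rps series, heat shock proteins, cellulose synthases, aquaporins, and light-harvesting and photosystem genes of the lhc and psa series were left out. This left 39 genes, out of 1108 with an annotated probe set, measured by 48 probe sets, out of 17621 other than controls (1452 of them with 1 annotated gene). Another 15 named probe sets reached 12 on all 4 arrays and were left out by name, and 204 reached it with no annotated gene. A log2 value rises by 1 when the signal doubles.

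RNA was hybridised to Affymetrix maize arrays, where a probe set reads a transcript cluster through several short DNA probes. Of the 4 arrays, 2 held the inbred line F98902, labelled as poorly digestible, and 2 held Cm484, labelled as well digestible. Plants of both lines came from a greenhouse kept at 22 °C in the day (14 h of light) and 20 °C at night, and were collected at flowering, 24 h ahead of ovulation; the labels name no treatment and no transgene. The labels name stem in the growth protocol and root in the extraction protocol, so no tissue is asserted here. They do not say that a line's 2 samples are different plants, and p-values therefore measure the spread between samples only, which may be technical. With 1 line of each kind, digestibility and all other differences between the lines cannot be told apart.

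Genes of this kind carry out protein synthesis, sugar breakdown, the assembly of the actin skeleton and the removal of damaged proteins and reactive oxygen. Elongation factor 1-alpha brings aminoacyl-tRNA to the ribosome, glyceraldehyde-3-phosphate dehydrogenase and enolase catalyse steps of glycolysis, and profilin and actin-depolymerising factor set the turnover of actin filaments. Several of these families are commonly used as reference genes in plant expression work because their transcripts are abundant in many tissues. Stress proteins such as dehydrins and cystatins can also be abundant, but they are known for changing with water status, development and attack.

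The rule used the level on all 4 arrays, so the high level itself is no finding. It also favours small differences between the lines, since a member had to lie between 12 and the top of the scale everywhere. The members ran from 12.09 to 14.48 on F98902 replicate 1 and from 12.04 to 14.44 on F98902 replicate 2, against 12.02 to 14.20 and 12.04 to 14.11 on Cm484 replicates 1 and 2. The highest values of any probe set on those arrays, in the same order, were 14.50, 14.68, 14.32 and 14.38. The strongest members therefore lay close to the top of the scale. Between 2.23% and 2.33% of probe sets reached 12 on each array, and the median of all probe sets lay between 5.87 and 5.98. A probe set's level depends on its oligonucleotides as well as on the transcript, so levels are not compared between genes.

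**Figure D1:**
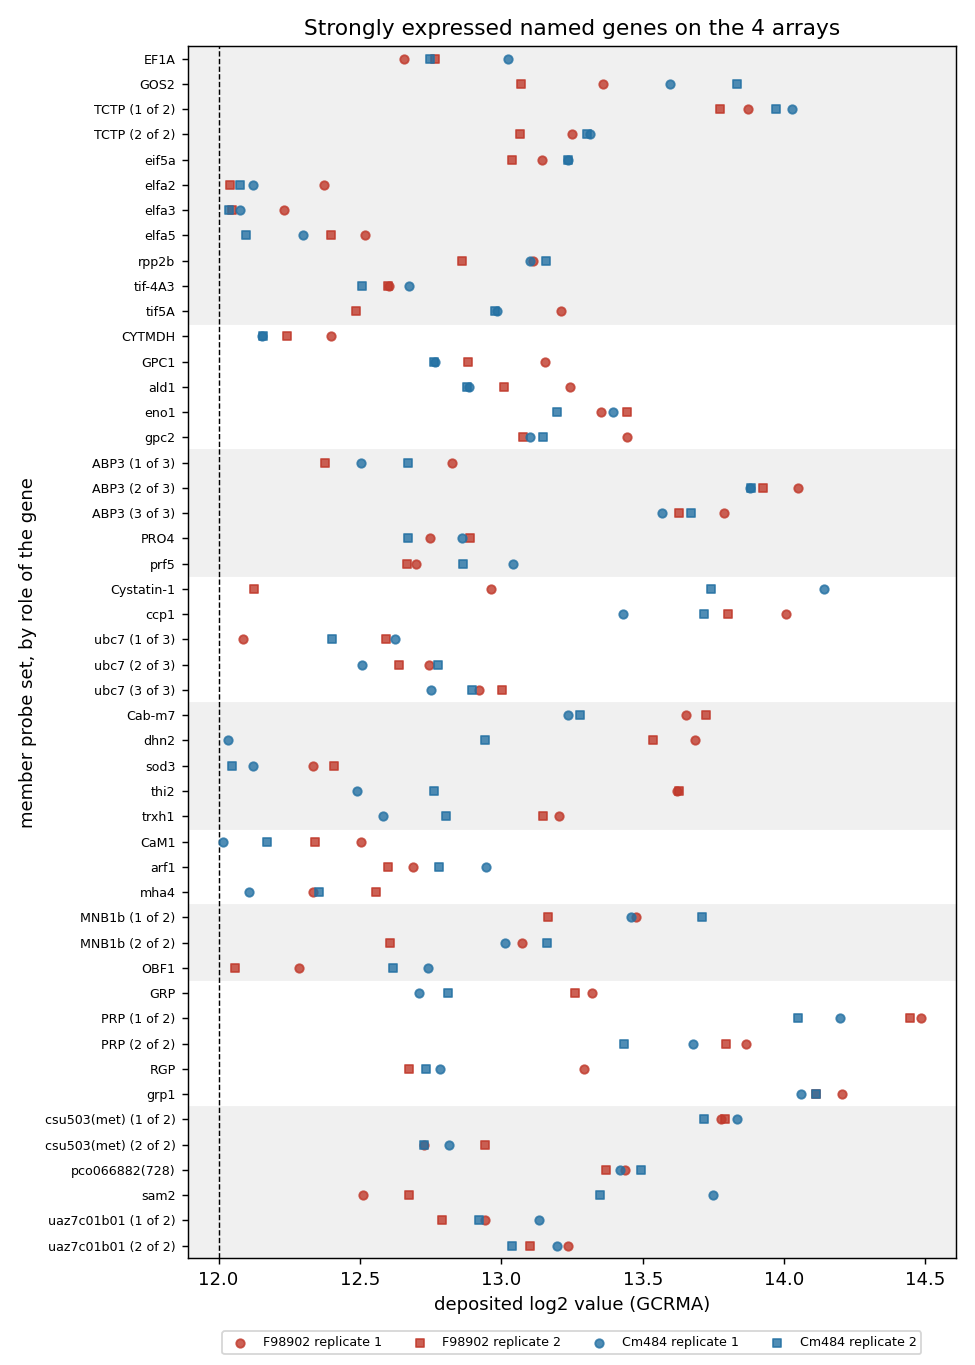
Deposited log2 value (x axis) of each of the 48 member probe sets (rows, grouped by the role of the gene) on the F98902 arrays (red) and the Cm484 arrays (blue), with circles for replicate 1 and squares for replicate 2. The dashed line marks the value of 12 used to choose them. Cystatin-1, dhn2, thi2, sam2 and GRP are among the members whose arrays do not overlap between the lines, as are others such as Cab-m7, OBF1 and GOS2.

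Most members lay close together in the 2 lines. In a limma fit over all 10131 probe sets kept (value of 5 or more on at least 2 arrays, a filter that all 48 members passed because of the rule), 5 of 48 members were called at an adjusted p under 0.05 (Benjamini-Hochberg over all probe sets kept). Of these, 3 were higher in F98902 and 2 were lower in F98902. Of all probe sets kept, limma called 34.9%, made up of 17.7% with the higher mean in F98902 and 17.1% with the higher mean in Cm484. Among the other 219 probe sets that reached 12 on all 4 arrays, 9.13% were called, 4.57% in each direction. Since the rule limits the differences, nothing is read from the smaller share of members called. The median absolute log2 difference was 0.18 over the members, 0.14 over those other 219 probe sets and 0.44 over all probe sets kept. The ranges of the lines did not overlap for 25 members, of which 16 lay higher and 9 lower in F98902. They overlapped for 23. Of all probe sets kept, 72.0% had ranges apart (34.9% higher in F98902 and 37.1% higher in Cm484), as had 51.1% of the other strong ones (21.5% higher in F98902 and 29.7% higher in Cm484).

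**Figure D2:**
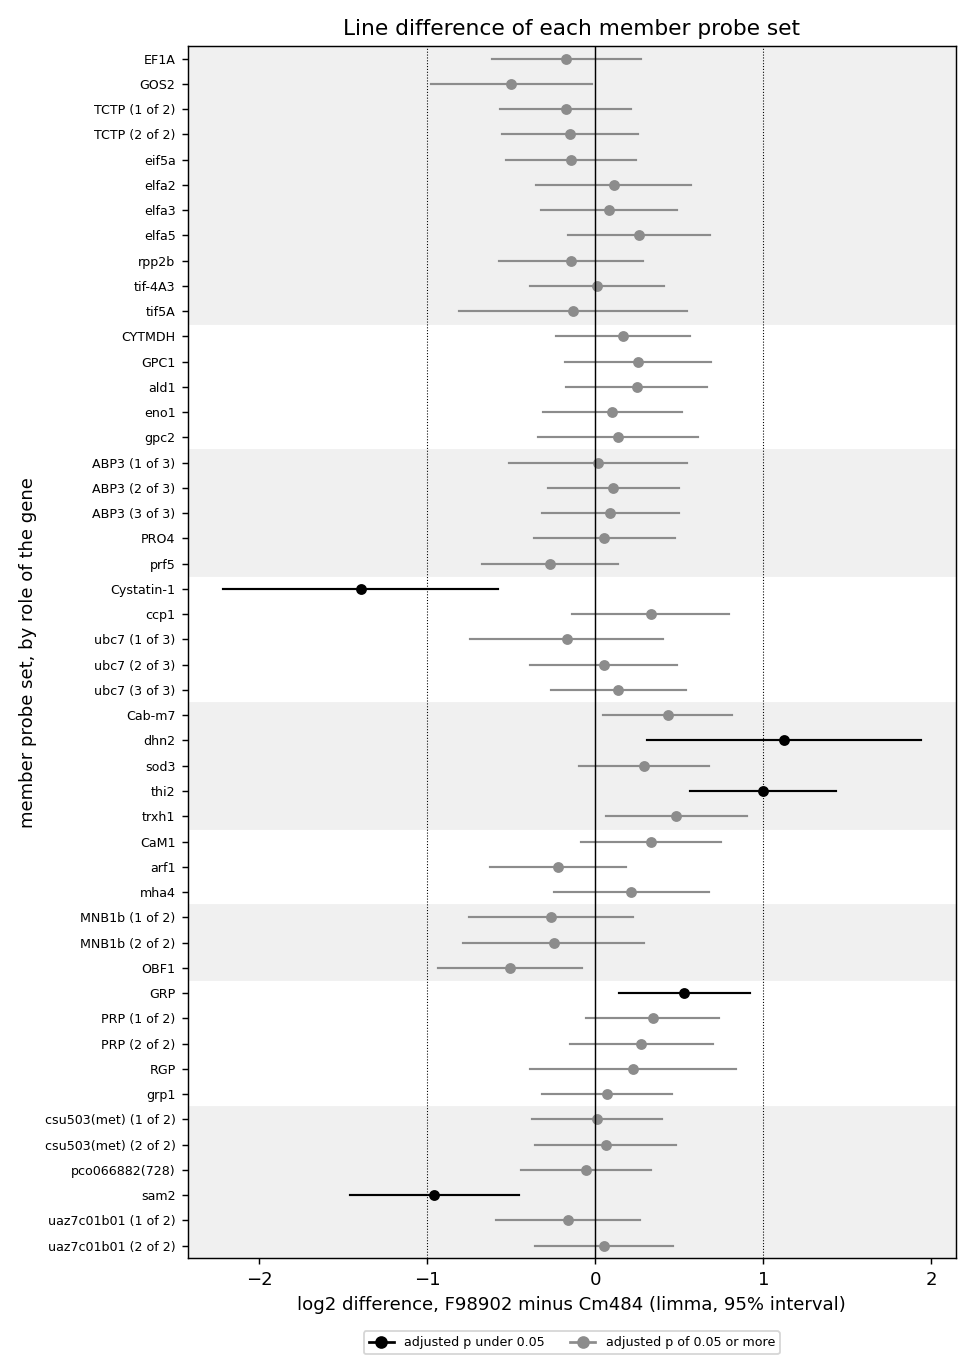
Log2 difference F98902 minus Cm484 (x axis, point) with its 95% interval from limma (bar) for each of the 48 members (rows), black where called and grey where not; dotted lines mark a 2-fold difference. The 5 black points are Cystatin-1 and sam2 on the negative side and dhn2, thi2 and GRP on the positive side, and the intervals of the other 43 lie within the dotted lines.

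Genes of protein synthesis had 11 member probe sets, with log2 differences from -0.50 to 0.26 and a median of -0.14. None was called in limma, 1 had an unadjusted p under 0.05 (GOS2), and the same 1 was called with an intensity trend and robust moderation. Elongation factor 1-alpha was represented by 4 genes. EF1A (LOC542581) read 12.66 and 12.77 on the F98902 arrays and 13.02 and 12.75 on the Cm484 arrays, so the lines overlapped. The gene elfa5 (LOC542555) read 12.52 and 12.40 in F98902 and 12.30 and 12.10 in Cm484, a difference of 0.26 ± 0.17 (SE, adjusted p = 0.284 in limma). The remaining pair, elfa2 (LOC100037748) and elfa3 (LOC542620), differed by 0.11 and 0.08, each from a probe set of a kind that can bind several related transcripts, so that their signals may mix. In the reference annotation (assembly Zm-B73-REFERENCE-NAM-5.0) they are neighbours with 1 gene between them.

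GOS2 (LOC541664), the gene of initiation factor 1 by comparison with its rice namesake, stood furthest apart among the translation genes. It read 13.36 and 13.07 in F98902 and 13.60 and 13.83 in Cm484, with both F98902 arrays below both Cm484 arrays, a difference of -0.50 ± 0.19 (SE, adjusted p = 0.099 in limma). The eukaryotic initiation factor 5A, which helps ribosomes past difficult peptide bonds, is encoded by eif5a (LOC542537) and tif5A (LOC542601). For eif5a the values were 13.14 and 13.04 in F98902 against 13.24 and 13.24 in Cm484. Those of tif5A were 13.21 and 12.49 in F98902, with the Cm484 arrays between them at 12.99 and 12.98. The RNA helicase gene tif-4A3 (LOC542348, an initiation factor 4A) gave 12.60 on both F98902 arrays and 12.67 and 12.51 on the Cm484 arrays, a difference of 0.01 with a 95% interval from -0.39 to 0.41. The acidic stalk protein gene rpp2b (LOC542340) read 13.11 and 12.86 in F98902 and 13.10 and 13.16 in Cm484. TCTP, for the translationally controlled tumour protein, was lower in F98902 on every array of both its members, by 0.18 and 0.15, and neither was called. A further TCTP probe set, not a member, went the other way, at 6.97 and 8.07 in F98902 and 6.79 and 6.53 in Cm484. Its difference of 0.87 ± 0.38 (SE, adjusted p = 0.139 in limma) was not called, but was without F98902 replicate 1 (adjusted p = 0.0165), and the sign thus differs between probe sets of this gene.

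The list of translation factor names, which takes symbols beginning with eif, eef, ef1 or tef, had 9 probe sets kept of 10 on the array, 2 of them members. None of the 9 was called in limma, where 34.9% of all probe sets kept were called. Of the 9, 0 had an unadjusted p under 0.05, and their median difference was 0.03 (all probe sets kept: -0.02). Without F98902 replicate 2, 1 was called.

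The 5 genes of central carbon metabolism had mean differences of 0.10 to 0.26, and single arrays of the lines overlapped for gpc2 and eno1. None was called in limma, and 0 had an unadjusted p under 0.05. GPC1 (LOC542367), a cytosolic glyceraldehyde-3-phosphate dehydrogenase, read 13.16 and 12.88 in F98902 against 12.76 on both Cm484 arrays. Its relative gpc2 (LOC542718) gave 13.44 and 13.08 in F98902 and 13.10 and 13.15 in Cm484, where the lines overlapped. The aldolase gene ald1 (LOC542261) read 13.24 and 13.01 in F98902 against 12.89 and 12.88 in Cm484, a difference of 0.25 ± 0.17 (SE, adjusted p = 0.306 in limma). The enolase gene eno1 (LOC732811) read 13.35 and 13.44 in F98902 and 13.40 and 13.20 in Cm484, a difference of 0.10. CYTMDH (LOC542598), for a cytosolic malate dehydrogenase, read 12.40 and 12.24 in F98902 and 12.15 and 12.16 in Cm484, a difference of 0.16. Ranges were apart for 3 of the 5, GPC1, ald1 and CYTMDH (72.0% of all probe sets kept, 51.1% of the other strong ones).

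The list of glycolysis and fermentation names had 38 probe sets kept, of which 15 were called (34.9% over all probe sets kept). However, 23 of the 38 matched through other names, such as mapping markers beginning with gpm, and 14 of the calls were among those. That split was made after the names and values were seen. Of the 15 probe sets kept that carry enzyme names, 4 were members, 1 was called and the median difference was 0.08. The call was for another dehydrogenase gene, gpc3 (LOC542333), lower in F98902 by 1.26 on the log2 scale (SE 0.36, adjusted p = 0.045 in limma). Other probe sets of gpc3 gave -0.89 (adjusted p = 0.105) and 0.08 (adjusted p = 0.859).

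The 5 actin probe sets differed by -0.27 to 0.11; none was called in limma and 0 had an unadjusted p under 0.05. ABP3 (LOC542445), an actin-depolymerising factor, had 3 member probe sets with differences of 0.02, 0.09 and 0.11. The last of these read 14.05 and 13.92 in F98902 and 13.88 and 13.88 in Cm484. The profilin gene PRO4 (LOC541662) read 12.75 and 12.89 in F98902 and 12.86 and 12.67 in Cm484, with a difference of 0.05 and an interval from -0.37 to 0.47. A second profilin gene, prf5 (LOC542625), gave 12.70 and 12.67 in F98902 and 13.04 and 12.86 in Cm484, lower on both F98902 arrays but not called (adjusted p = 0.249 in limma). The 5 kept probe sets of the actin cytoskeleton list were these same members, and the other 5 of the 10 on the array, for prf1, prf2, prf3, adf1 and adf2, did not pass the filter.

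Protein turnover held the largest absolute difference among the members. Cystatin-1 (LOC542213) encodes a corn cystatin, an inhibitor of cysteine proteases. Its member probe set read 12.96 and 12.12 on the F98902 arrays, against 14.14 and 13.74 on the Cm484 arrays. Both F98902 values lay below both Cm484 values, and the log2 difference was -1.40 ± 0.32 (SE, adjusted p = 0.0255 in limma). The call was lost without F98902 replicate 2 (difference -0.98, adjusted p = 0.0631), Cm484 replicate 1 (adjusted p = 0.117) or Cm484 replicate 2 (adjusted p = 0.0554), and with no filter (adjusted p = 0.0986).

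A second probe set of the same gene, which was not a member, went the other way. It read 12.21 and 11.78 in F98902 and 10.14 and 11.07 in Cm484, a difference of 1.39 ± 0.35 (SE, adjusted p = 0.0323 in limma). Both F98902 values lay above both Cm484 values. The direction for this gene therefore depends on the probe set. The positive call was lost without F98902 replicate 1 (adjusted p = 0.12), F98902 replicate 2 (adjusted p = 0.0666) or Cm484 replicate 1 (adjusted p = 0.0858), and with no filter (adjusted p = 0.119).

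The cysteine protease gene ccp1 (LOC542701) read 14.01 and 13.80 in F98902 against 13.43 and 13.72 in Cm484, higher on both F98902 arrays but not called (0.33 ± 0.18 SE, adjusted p = 0.229 in limma). The ubiquitin-conjugating enzyme gene ubc7 (LOC542600), which passes ubiquitin on to proteins marked for breakdown, had 3 members with differences of -0.17, 0.05 and 0.14. The first read 12.09 and 12.59 in F98902 and 12.62 and 12.40 in Cm484, and the second read 12.74 and 12.64 in F98902 and 12.51 and 12.78 in Cm484. The lines overlapped for both of these and not for the last.

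The group of redox, stress and cofactor genes, put together by hand from unlike functions, had 2 of 5 members called, both higher in F98902, where 34.9% of all probe sets kept were called. Both F98902 arrays lay above both Cm484 arrays for 5 of 5, as for 34.9% of all probe sets kept, and 3 of the 5 did not pass the test. thi2 (LOC542715), an enzyme that makes the thiazole part of thiamine, read 13.62 and 13.63 in F98902 against 12.49 and 12.76 in Cm484. It was higher by 1.0 ± 0.17 (SE, adjusted p = 0.00987 in limma), the smallest adjusted p of any member, and of the 11 alternatives only the fit without Cm484 replicate 1 lost the call (adjusted p = 0.0514). The dehydrin gene dhn2 (LOC542251), of a family that protects cells during water loss, read 13.69 and 13.54 in F98902 and 12.03 and 12.94 in Cm484. The 2 Cm484 arrays differed by 0.91, the widest replicate gap among the members. Its difference of 1.12 ± 0.32 (SE, adjusted p = 0.047 in limma) lost its call when F98902 replicate 1 (adjusted p = 0.146), F98902 replicate 2 (adjusted p = 0.121) or Cm484 replicate 1 (adjusted p = 0.103) was dropped, and was then 0.67 in the last case. It was also not called with no filter (adjusted p = 0.147) or with quantile normalization (adjusted p = 0.053).

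Both other probe sets of dhn2, which the rule did not take, were higher in F98902 as well. The clearer of them read 12.80 and 12.53 in F98902 and 10.35 and 10.97 in Cm484, a difference of 2.0 ± 0.26 (SE, adjusted p = 0.00378 in limma). The last read 13.15 and 12.47 in F98902 against 10.84 and 11.79 in Cm484, a difference of 1.5 ± 0.39 (SE, adjusted p = 0.0362). Its call was lost under several alternatives in limma, among them no filter (adjusted p = 0.132) and the replicate block (adjusted p = 0.0648). These probe sets may share transcript sequence, so they are not independent of each other or of the member. Their differences were wider than that of the member, which had to reach 12 on all arrays.

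**Figure D3:**
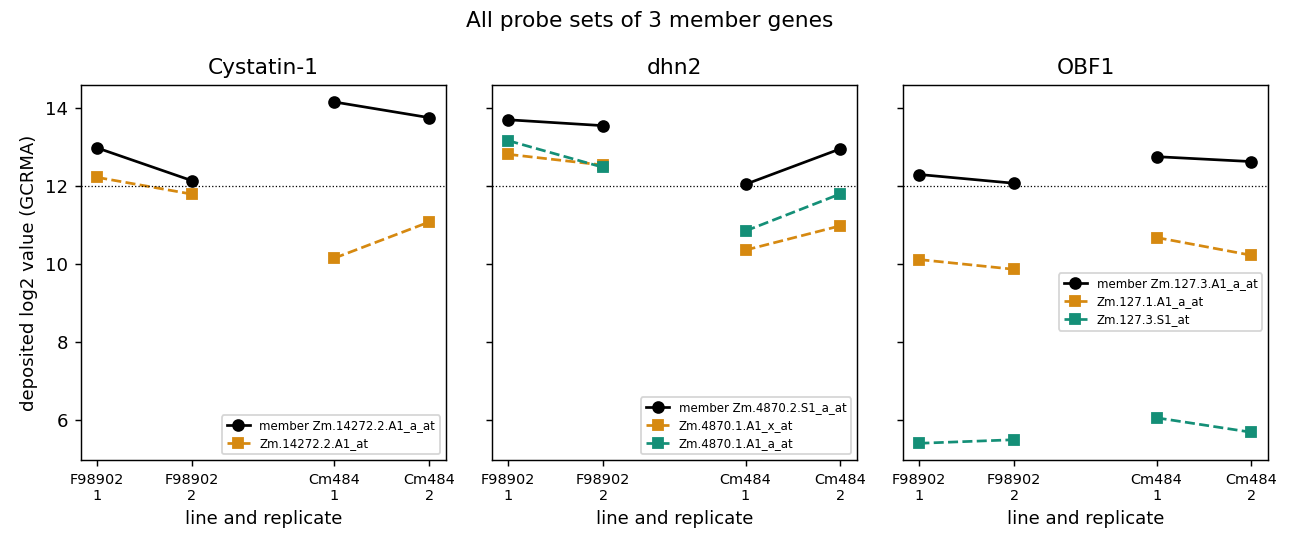
Deposited log2 value (y axis) on each array (x axis, F98902 left of Cm484) for every probe set of Cystatin-1, dhn2 and OBF1, with the member as black circles and the others as coloured squares joined by dashed lines; the dotted line marks 12. The 2 Cystatin-1 probe sets move in opposite directions between the lines, while those of dhn2 are all higher and those of OBF1 all lower in F98902.

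The thioredoxin h gene trxh1 (LOC606450), for a small protein that reduces disulfide bonds, read 13.20 and 13.15 in F98902 against 12.58 and 12.80 in Cm484 (0.48 ± 0.17 SE, adjusted p = 0.0766 in limma). sod3 (LOC542764), a mitochondrial superoxide dismutase, gave 12.33 and 12.41 in F98902 and 12.12 and 12.05 in Cm484. In the list of redox and detoxification names, 13 probe sets were kept, of which limma called 4 as higher and 1 as lower in F98902, a share close to the 34.9% called over all probe sets kept. Its median difference was 0.36 (all probe sets kept: -0.02). Neither member of that list, sod3 or trxh1, was called. A related thioredoxin gene, trxh2 (LOC606487), was called at 0.90 ± 0.22 (SE, adjusted p = 0.0287).

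Cab-m7, a chlorophyll a/b-binding protein gene of the light-harvesting antenna, read 13.65 and 13.72 in F98902 and 13.24 and 13.28 in Cm484. It was higher on both F98902 arrays and not called (0.43 ± 0.15 SE, adjusted p = 0.0817 in limma), but was called with no filter on low values (adjusted p = 0.0341). The list of photosynthetic cell markers, to which Cab-m7 belongs, lay the same way: of its 22 probe sets 18 were kept, with 11 calls in the F98902 direction (17.7% over all probe sets kept), 1 in the other and a median difference of 1.17. The summed linear signal of the list was 62194 and 59883 in F98902 against 31767 and 37253 in Cm484, and 19 and 18 of its probe sets reached 5 in F98902 against 18 and 18 in Cm484. Several of the calls came from repeated probe sets of the same genes, PPDK (LOC542759) and lhcb6 (LOC542321), which the median and the sum count repeatedly. Both measures also include Cab-m7. thi2, whose enzyme works in plastids, was higher in F98902 too, and the part of photosynthetic cells in either difference was not tested. In such bulk RNA, fewer cells of a type and less RNA per cell cannot be told apart. The root marker list had 5 probe sets, but 4 of them matched through MRP names, which other kinds of gene also carry, so the list gives no root level. Of its 2 probe sets kept, zrp4 (LOC542706), named for root preference, read 2.34 and 2.07 in F98902 and 8.83 and 8.59 in Cm484. The other, for lpa1 (LOC100125659, also named MRP4), read 10.21 and 9.56 in F98902 and 9.76 and 9.57 in Cm484, where the lines overlapped. The 3 not kept lay under 5 on all 4 arrays.

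sam2 (LOC542733) was lower in F98902. It read 12.51 and 12.67 on the F98902 arrays against 13.75 and 13.35 on the Cm484 arrays, with no overlap, a difference of -0.96 ± 0.20 (SE, adjusted p = 0.0184 in limma). The call was lost without F98902 replicate 1 (adjusted p = 0.0739), F98902 replicate 2 (adjusted p = 0.0543) or Cm484 replicate 1 (adjusted p = 0.0792). The annotation gives only the symbol, so no enzyme is named here. A further 3 genes have names that do not state a product. csu503(met) (LOC541942) gave differences of 0.01 and 0.06 from 2 members, the first at 13.78 and 13.79 in F98902 and 13.83 and 13.72 in Cm484. uaz7c01b01 (LOC541999) gave -0.16 and 0.05, and LOC542641, known by a clone name, gave -0.05, with 13.44 and 13.37 in F98902 and 13.42 and 13.50 in Cm484.

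Wall-related names among the members gave 1 call among 5 probe sets, where 34.9% of all probe sets kept were called. The list of cell wall protein names had 16 probe sets kept, 4 of them members. Of the 16, limma called 11, with 5 higher and 6 lower in F98902. That list goes by the first letters of names, so it also took in names such as prpl35-1 and prpo1. GRP (LOC542562), a glycine-rich protein gene, read 13.32 and 13.26 in F98902 against 12.71 and 12.81 in Cm484, a difference of 0.53 ± 0.15 (SE, adjusted p = 0.0489 in limma). Leaving out any of the 4 arrays ended the call (adjusted p from 0.115 to 0.182), as did quantile normalization (adjusted p = 0.0533). Both members of PRP (LOC542467), a symbol shared by a proline-rich protein and a splicing factor, were higher on both F98902 arrays. The first read 14.48 and 14.44 in F98902 and 14.20 and 14.05 in Cm484, a difference of 0.34 ± 0.16 (SE, adjusted p = 0.155), close to the top of the scale. RGP (LOC542592), a reversibly glycosylated polypeptide that interconverts forms of UDP-arabinose for wall synthesis, gave 13.29 and 12.67 in F98902 around 12.78 and 12.74 in Cm484. grp1 (LOC542725) gave 14.21 and 14.11 in F98902 and 14.06 and 14.11 in Cm484.

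Among the genes of nuclear proteins, OBF1, a bZIP transcription factor that binds ocs elements, was lower on both F98902 arrays. It read 12.28 and 12.06 in F98902 and 12.74 and 12.62 in Cm484 (-0.51 ± 0.17 SE, adjusted p = 0.0714 in limma). Its other probe sets lay lower in F98902 as well, by -0.46 (adjusted p = 0.164) and -0.42 (adjusted p = 0.148), and none of the 3 was called. MNB1b, a DNA-binding protein of the HMG-box family, gave -0.25 and -0.26 from 2 members, whose ranges overlapped between the lines. Of these 3 members none was called in limma, 1 had an unadjusted p under 0.05 (OBF1), and 1 was called with the trend and robust moderation.

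None of the 3 signalling and membrane genes was called in limma, and 0 had an unadjusted p under 0.05. The calmodulin gene CaM1, for a calcium sensor, read 12.50 and 12.34 in F98902 and 12.02 and 12.17 in Cm484, a difference of 0.33 ± 0.16 (SE, adjusted p = 0.185 in limma). mha4 (LOC542052), a proton pump of the plasma membrane, read 12.33 and 12.56 in F98902 and 12.11 and 12.36 in Cm484. arf1 (LOC732812), a symbol of both ADP-ribosylation and auxin response factors, read 12.69 and 12.60 in F98902 and 12.94 and 12.78 in Cm484.

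For the 43 members not called, the 95% intervals, each taken singly, ran from -0.98 at the lowest to 0.90 at the highest, within 2-fold. Since the rule favours small differences, these intervals do not exclude a 2-fold difference for the genes. Some further probe sets of these genes had wider intervals, such as that of GPC1, from -1.94 to 2.42. The largest absolute difference among the 43 members not called was 0.51, for OBF1, and 30 of the 43 differed by less than 0.25. A missed threshold does not show that the lines express a gene alike. With an intensity trend and robust moderation in the fit, 4 more members were called: OBF1 (adjusted p = 0.0362), trxh1 (adjusted p = 0.0338), Cab-m7 (adjusted p = 0.0258) and GOS2 (adjusted p = 0.0498).

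The threshold cut through a dense range of values. Just inside it, the lowest array read 12.02 for the calmodulin gene CaM1 (LOC542420), 12.03 for the dehydrin gene dhn2, 12.04 for the elongation factor genes elfa3 and elfa2, and 12.05 for the superoxide dismutase gene sod3. Just outside it lay the ferredoxin gene fdx3 (LOC542276), at 11.98 on its lowest array, a further elfa3 probe set at 11.98, and see1 (LOC542451, also named ccp2) at 11.96. The catalase gene CAT3 (LOC542370) missed at 11.94 and the alcohol dehydrogenase gene adh1 (LOC542363) at 11.87. In all, 17 probe sets that the names did not exclude had their lowest array within 0.25 below the threshold, against 11 members within 0.25 above it.

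Of the 39 genes, 7 had more than 1 member probe set, and in 5 of these 7 all members had the same sign, the exceptions being ubc7 and uaz7c01b01. Member probe sets of the same gene may share transcript sequence, so they are not independent of each other. Measures outside the rule came from further probe sets of the member genes. The array held 31 probe sets for 16 of the genes that were not members, 9 of them under 5 on all 4 arrays. Of the 4 such probe sets of elfa2, 1 read 3.61 to 3.85 over the 4 arrays and another 9.10 to 9.25. The 22 that passed the filter belonged to 14 genes, and 3 were called, where 34.9% of all probe sets kept were called. These 3, 2 of dhn2 and 1 of Cystatin-1, were higher in F98902, as were 17.7% of all probe sets kept. The members differed from the array in the kind of probe set. Probe sets ending in _a_at, which read several transcripts of the same gene family or cluster, made up 31.2% of the members against 7.14% of all probe sets, and those ending in _x_at or _s_at, which can bind other transcripts, 14.6% and 8.33% against 3.58% and 1.90%. The only members of EF1A, elfa2, elfa3, tif5A, GPC1, CaM1 and grp1 end in _x_at or _s_at.

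Replicate arrays of a line differed by a median of 0.15 in F98902 and 0.15 in Cm484 over the members, against 0.21 in F98902 and 0.19 in Cm484 over all probe sets kept. F98902 replicate 2 lay below replicate 1 for 36 of 48 members, with a median of -0.11, where the median over all probe sets kept was -0.01 and over the other strong probe sets -0.08. In Cm484, replicate 2 lay below replicate 1 for 27 of 48 members, with a median of -0.01. The widest F98902 gap, 0.84, was that of Cystatin-1.

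Among the array's own controls, those for elongation factor 1-alpha and glyceraldehyde-3-phosphate dehydrogenase, which are member families, showed where F98902 replicate 2 stood apart. So did those for cyclophilin, which is not a member family. At the 5′ end of elongation factor 1-alpha, 1 control read 10.39 and 8.70 in F98902 and 10.17 and 9.51 in Cm484, whereas at the 3′ end F98902 replicate 2, at 11.80, lay close to the Cm484 arrays at 11.95 and 11.96. The glyceraldehyde-3-phosphate dehydrogenase controls read 11.98 and 10.71 in F98902 against 11.44 and 11.19 in Cm484 at the 5′ end, and 13.73 and 13.60 in F98902 against 13.57 and 13.50 in Cm484 at the 3′ end. For cyclophilin, the 5′ control read 13.42 and 12.77 in F98902 and 12.89 and 12.98 in Cm484. F98902 replicate 2 was the lowest of the 4 arrays at each of these 5′ ends, and lay above both Cm484 arrays at the 3′ end of the dehydrogenase. The further probe set of GPC1 followed the same array, at 8.86 and 6.13 in F98902 and 7.39 and 7.11 in Cm484. Other controls differed. At the 5′ end of ubiquitin, a control read 11.96 and 11.58 in F98902 and 11.98 and 11.62 in Cm484. There F98902 replicate 2 lay close to Cm484 replicate 2. At the 3′ end of actin, a control read 9.56 and 9.63 in F98902 and 10.55 and 9.56 in Cm484, with Cm484 replicate 1 apart. RNA amounts on the labels were 312.4 and 120.7 ng for F98902 and 416.8 and 342.3 ng for Cm484. The part of RNA quality in the member values was not tested.

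**Figure D4:**
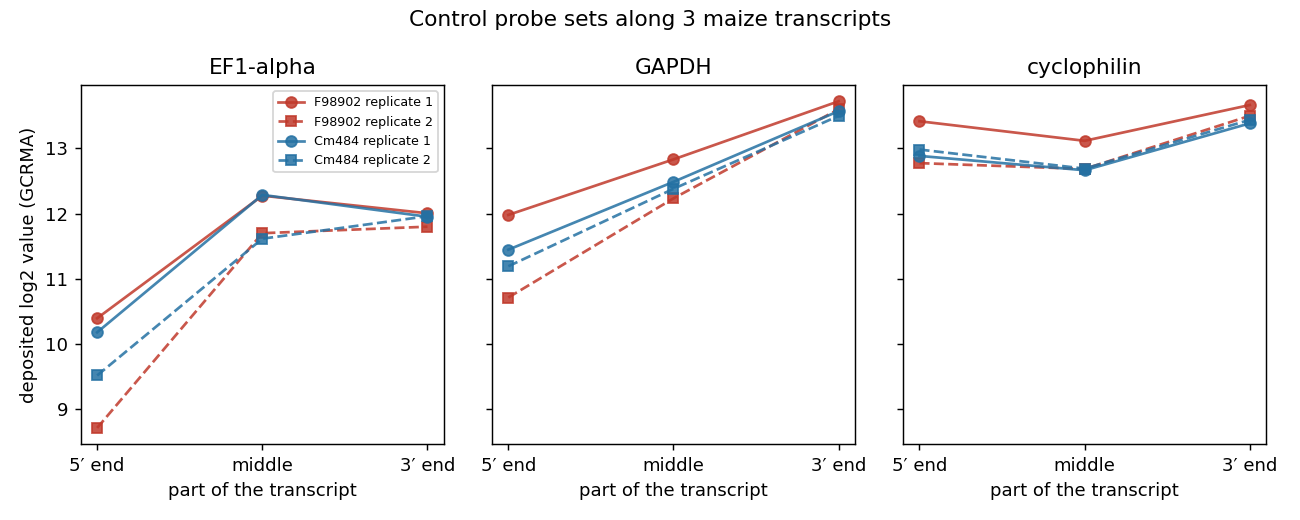
Deposited log2 value (y axis) of control probe sets at the 5′ end, middle and 3′ end (x axis) of 3 maize transcripts, with F98902 in red and Cm484 in blue, solid for replicate 1 and dashed for replicate 2. F98902 replicate 2 is the lowest at the 5′ end of all 3, at 8.70 for elongation factor 1-alpha, while the 4 arrays lie close together at the 3′ ends.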

How the data were processed

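The authors deposited 1 table of log2 values, made with GCRMA in R 2.6.2 per the submitters' processing notes; GCRMA corrects background by probe sequence, normalizes across arrays and summarises each probe set. No further step is given in the sources used. Depth does not apply to arrays; their number limits the precision.

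Genes came from the platform's annotation, updated through gene identifiers to a reference table (assembly: Zm-B73-REFERENCE-NAM-5.0) that held 37 of the 39 genes. No genome was used, so no coordinates or sequences are given. Names were excluded without regard to case.

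Probe sets at 5 or above on at least 2 arrays entered a two-sided limma 3.58.1 fit (R 4.3.3) of F98902 minus Cm484 without covariates; its residual degrees of freedom were 2 and its prior ones 3.26. The fit was tested on simulated data. Members and lists were chosen with earlier results of these data known. Every member may be named, in groups by role, with fit statistics for those called first. List patterns, roles and the probe set comparisons were descriptive. Alternatives covered the filter, normalization, variance model, shared probe sets, each array left out and the replicate number as a block.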

Additional observations from a re-analysis of the deposited data

How the results depend on the processing

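No member's call held under every alternative. Over 11 alternatives for the 5 called members, 35 of 55 settings kept the call, 20 lost it and 0 turned the direction. Members called higher in F98902 numbered 3, against 1 with quantile normalization, 5 with an intensity trend and robust moderation, and 0 to 2 with an array left out. Those called lower in F98902 numbered 2, against 1 with no filter, 4 with the trend and 0 to 1 with an array left out; without Cm484 replicate 1 none of the 5 calls remained. All probe sets called numbered 3533, against 2205 to 2706 with an array left out (2205 without Cm484 replicate 1, 2339 without F98902 replicate 2). Leaving out an array leaves its line with 1, assumed to vary like the other line's. The glycolysis list had 15 calls (10 with no filter, 7 to 12 with an array left out), the redox list 5 (3 to 4) and the translation factor list 0 (0 to 1), with the glycolysis and redox minima both without Cm484 replicate 1. The number of members was 48, against 105 at a threshold of 11, 17 at a threshold of 13, 63 by the mean of the arrays, 37 without probe sets ending in _s_at or _x_at, and 50 to 52 with an array left out.

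Both lines have samples numbered 1 and 2, but same-numbered arrays did not deviate together (r = -0.02 over the probe sets kept), so the number is not taken as a pairing. With the replicate block, 1 member was called higher in F98902, 2 lower, and 3 of the redox list; dhn2 (adjusted p = 0.0591 in limma), GRP (0.0959) and the second Cystatin-1 (0.0545) and another dhn2 probe set (0.0648) were not called. Values near the top of the scale may limit what can be seen for the strongest members, which was not tested. The causes of these changes were not tested.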
